A study of Mus musculus with 9 samples.

Results

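Embryonic stem cells of the mouse line D3 (mESC) were compared after 24 h in serum medium with a nitric oxide donor (NO) and after 24 h in the matched serum medium without it (DM). The comparison comprised 6 of the 9 total RNA libraries of the series, chosen by their medium alone, with 3 replicates per medium. DM was DMEM with 10% FBS, glutamine at 4 mmol/L and a low glucose content of 1 g/L, and NO medium was the same mixture with 250 μM of DETA/NO, an adduct that sets nitric oxide free as it decays in water. The question posed by the design was which genes respond to the donor rather than to the withdrawal of ground-state medium. No library had spent donor or the DETA part alone, so effects of nitric oxide and of the rest of the donor cannot be told apart. The other 3 libraries, from cells held in the serum-free ground-state medium (GS) with a MEK inhibitor, a GSK-3 inhibitor and LIF, served to estimate the spread and as a reference level. All libraries came from 1 established line grown without feeder cells, and the labels do not say whether the replicates were separate cultures, so p-values measure only the spread between these samples.

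Nitric oxide is a diffusible radical that binds the haem of soluble guanylate cyclase, raising cGMP, and that can also nitrosylate cysteines, inhibit cytochrome c oxidase and damage DNA. By holding back mitochondrial oxygen use and by acting on prolyl hydroxylases, it is known to change the activity of HIF, the transcription factor through which cells raise glycolytic enzymes and other hypoxia-response genes when oxygen is short. The p53 protein is the main transcription factor of the DNA damage response. Mouse ES cells depend on glycolysis, express Pou5f1, Sox2 and Nanog, and on leaving the naive state pass through a formative state marked by Otx2 before they turn to the germ layers.

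The promoters of genes that carry the main finding, the fall of several glycolytic and hypoxia-response genes, are shown first. Each is 300 bases long, from 250 before to 50 after the start of the gene, 5′ to 3′ on the strand of the gene, from RefSeq on GRCm38.p6. Capitals mark ACGTG on either strand, a form of the core of the HIF binding motif. The other form, GCGTG, was not searched for, so a window without a match can still hold it. On both strands CACGTG counts as a pair of matches, and it is also the E-box bound by other factors. The windows are Bnip3 on the minus strand (chr7:138909457-138909756), Slc16a3 on the plus strand (chr11:120948817-120949116), Pgk1 on the plus strand (chrX:106186850-106187149) and 1 of the windows of Ldha on the plus strand (chr7:46845554-46845853).
Bnip3: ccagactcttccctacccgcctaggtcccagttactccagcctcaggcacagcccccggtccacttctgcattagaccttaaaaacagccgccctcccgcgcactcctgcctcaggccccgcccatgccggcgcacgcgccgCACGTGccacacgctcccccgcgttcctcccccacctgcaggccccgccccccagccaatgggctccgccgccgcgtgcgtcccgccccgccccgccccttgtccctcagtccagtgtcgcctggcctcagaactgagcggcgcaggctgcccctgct
Slc16a3: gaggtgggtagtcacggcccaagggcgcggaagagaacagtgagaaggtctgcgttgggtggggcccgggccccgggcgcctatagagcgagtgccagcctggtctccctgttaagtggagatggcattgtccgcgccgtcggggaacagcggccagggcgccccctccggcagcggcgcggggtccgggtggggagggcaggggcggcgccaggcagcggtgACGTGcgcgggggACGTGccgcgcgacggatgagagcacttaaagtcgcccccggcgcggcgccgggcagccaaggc
Pgk1: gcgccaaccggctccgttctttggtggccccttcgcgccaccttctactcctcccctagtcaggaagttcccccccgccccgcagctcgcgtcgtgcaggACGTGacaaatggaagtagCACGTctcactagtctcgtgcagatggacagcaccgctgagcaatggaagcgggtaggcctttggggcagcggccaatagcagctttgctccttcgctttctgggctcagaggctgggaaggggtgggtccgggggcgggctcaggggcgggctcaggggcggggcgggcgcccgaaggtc
Ldha: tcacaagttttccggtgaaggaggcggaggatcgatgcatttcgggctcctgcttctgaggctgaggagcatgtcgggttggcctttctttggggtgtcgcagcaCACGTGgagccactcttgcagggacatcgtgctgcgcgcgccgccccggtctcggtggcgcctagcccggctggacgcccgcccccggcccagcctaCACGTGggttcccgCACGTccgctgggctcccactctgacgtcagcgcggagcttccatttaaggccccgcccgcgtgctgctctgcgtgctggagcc
The 4 windows held between 2 and 5 matches and are a selection. The other Ldha window held 0 matches, as did every window of Pfkp, Tpi1, Pfkl, Eno1, Pdk1 and Stc2, all lower in NO. At least 1 match was present in a window of 16 of the 21 genes with a window (76.2%) in the list of hypoxia-response genes outside glycolysis and of 10 of 18 glycolytic enzyme genes (55.6%), against 3210 of 11410 tested genes with a window (28.1%). It was present for 78 of 211 genes lower in NO (37.0%) and 196 of 843 genes higher in NO (23.3%). Genes differ in their number of windows. Counted by window, ACGTG on either strand was in 41.4% of 29 glycolytic windows and 56.7% of 30 hypoxia-response windows. It was in 30.5% of 272 windows of lower genes and 20.0% of 1071 of higher genes. These shares stood against 24.3% of 14489 windows of tested genes and 19.6% of all windows of the RefSeq table. A match is a run of letters and not a binding site. The hypoxia-response list was made of known hypoxia-response genes. Its share follows in part from that choice and is no evidence about this comparison. Among genes lower in NO, a match was present for 6 of 10 glycolytic enzyme genes (60.0%) and 6 of 7 hypoxia-response genes (85.7%). The whole lists stood at 55.6% and 76.2%.

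Values are read counts per gene as normalised and rounded by the authors, called normalised counts below. Of 29069 genes, 18156 had a mean above 5 over the 9 samples and were tested with limma on log2(normalised count + 1). A gene was called where its change was 2-fold or more and its p-value, adjusted by Benjamini and Hochberg, stayed under 0.05. With DETA/NO, 1231 genes (6.78% of those tested) were higher and 321 (1.77%) were lower, 8.55% in all, and the median change over all tested genes was 0.00 on the log2 scale. Under quantile normalisation in place of the deposited scaling the split was 959 higher against 514 lower genes. The count of calls was 2512 without NO replicate 1, 806 without NO replicate 2 and 982 without NO replicate 3, and it was 936, 920 and 1028 without DM replicate 1, 2 or 3, so each of the 6 libraries moved it by more than 1.5 times. Of 198 genes named by rule, 65 have exons that overlap another annotated gene, among them Arg2 (Vti1b), Nos3 (Atg9b), Eng (Fpgs), Col9a3 (Tcfl5), Slc7a10 (Lrp3), Tead2 (Cd37) and Gys1 (Ruvbl2), and their values are uncertain to that extent because use of the strand in counting was not stated. The estimated depth was between 14302054 and 27099750 assigned reads per library.

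Genes on either side differed in level. The median mean level in DM was 25.3 normalised counts for the higher genes, 315 for the lower genes and 225 for all tested genes. A mean below 10 in DM was found for 383 of the higher genes (31.1%), whereas 132 of the 321 lower genes had a mean above 500. Changes of at least 4-fold were seen for 610 higher and 50 lower genes. The fitted change of a gene near 0 in DM depends on the value of 1 added before the logarithm.

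**Figure D1:**
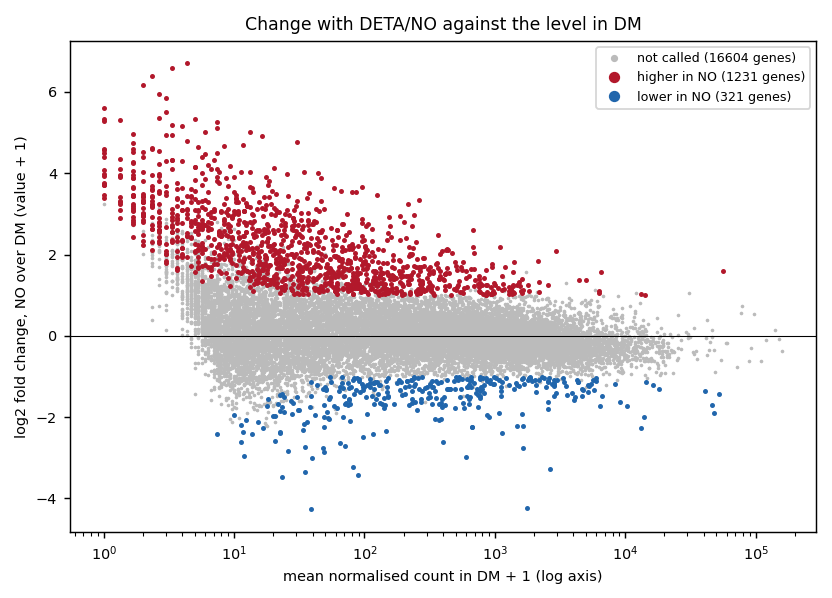
Each point is 1 of 18156 tested genes, with its mean normalised count in DM plus 1 on a log axis and its log2 fold change of NO over DM. The 1231 higher genes lie mostly at low levels in DM, with a median of 25.3, and the 321 lower genes at higher levels, with a median of 315.

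Glycolytic enzymes had the highest share of lower genes among the 58 gene lists with tested members. Of 18 enzyme genes, all tested, 10 fell and 1 rose, and the median log2 fold change was -1.25. The same 10 were called when only the 6 samples entered the fit and when NO replicate 2 was left out. Pfkp, the platelet form of phosphofructokinase, which catalyses the committed step of glycolysis, had 4315, 1711 and 2778 normalised counts in NO and 12443, 12631 and 14645 in DM (log2 fold change -2.27, SE 0.26, adjusted p = 0.00158). Its liver form Pfkl had 3086, 3158 and 3126 in NO and 10271, 8811 and 12079 in DM, nearly the same value in each NO library (-1.72, adjusted p = 1.65e-04). The muscle form Pfkm did not pass the test, with 1996, 1794 and 1966 against 2591, 2185 and 2500 (adjusted p = 0.0846).

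Among later steps, triosephosphate isomerase (Tpi1) had 3848, 2693 and 3741 normalised counts in NO and 13267, 10865 and 17347 in DM, a level in NO of 24.8% of that in DM (ratio of means). Ldha, the lactate dehydrogenase subunit that turns pyruvate into lactate, had 15044, 10769 and 10321 in NO against 36275, 31699 and 76705 in DM (log2 fold change -1.91, SE 0.31). The third DM library was the highest for Ldha, yet the lowest DM value was still above every NO value. Pgk1, phosphoglycerate kinase, fell from 9179, 8070 and 10221 in DM to 3683, 2336 and 2932 in NO (-1.64, adjusted p = 0.00138). Hexokinase 2 (Hk2), which traps glucose in the cell, had 7305, 5777 and 6372 in NO and 13691, 13450 and 15806 in DM (-1.15, adjusted p = 0.00195). Aldoc, Aldoa, Pkm and Eno1 completed the 10 lower genes, with log2 fold changes between -2.39 and -1.35. In GS these genes were near the level in DM: Pfkp had 11302, 9129 and 9628 normalised counts and Tpi1 13086, 11495 and 11406.

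Not every enzyme followed. Gapdh, which varied widely within each medium, had 60170, 22918 and 45744 in NO and 77552, 40590 and 98129 in DM (log2 fold change -0.76, adjusted p = 0.181). The neuronal enolase Eno2 and the hexokinase Hk1 did not pass the test (0.00 and -0.24). The muscle phosphoglycerate mutase Pgam2 rose from 55, 55 and 69 to 95, 164 and 127 (1.07, adjusted p = 0.0175), a call that was lost with only the 6 samples and without NO replicate 2. Exons of Pfkp, Tpi1 and Aldoa overlap those of Pitrm1, Spsb2 and Fam57b.

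Of 18 tested carriers and regulators around glycolysis, 3 fell and 1 rose. Slc16a3, the carrier that exports lactate (chr11:120948480-120960868 in the GENCODE annotation of GRCm38, plus strand), was at 251, 319 and 245 normalised counts in NO and 2348, 2285 and 3367 in DM (log2 fold change -3.28, SE 0.18, adjusted p = 4.60e-06), so that the level in NO was 10.2% of that in DM. Pdk1, the kinase that closes the entry of pyruvate into mitochondria, was at 2428, 1509 and 2072 in NO against 5424, 4739 and 5350 in DM (-1.39, adjusted p = 0.00209). Pfkfb3 and Pfkfb4 are bifunctional enzymes that set fructose 2,6-bisphosphate. Pfkfb3 fell from 509, 547 and 660 to 101, 355 and 167 (-1.64, adjusted p = 0.0121), and Pfkfb4 rose from 147, 138 and 133 to 220, 572 and 284 (1.24, adjusted p = 0.0202). The Pfkfb4 call was lost with only the 6 samples (adjusted p = 0.0569), and without NO replicate 2 its change was under 2-fold (0.84). For glucose uptake, Slc2a1 was lower by less than 2-fold, with 3502, 6593 and 5175 against 8546, 8574 and 11129 (-0.92, adjusted p = 0.0162), while Slc2a3, the carrier with the higher counts, had 35125, 40973 and 39582 against 33665, 31649 and 36073 and did not pass the test (0.19, adjusted p = 0.439).

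In glycogen metabolism 3 of 14 genes rose and 1 fell. Pgm2 (ENSMUSG00000025791), a phosphoglucomutase gene, had 255, 357 and 256 normalised counts in NO and 1044, 1194 and 983 in DM (log2 fold change -1.90, adjusted p = 4.50e-04). The higher genes were Gyg, which primes glycogen (213, 400 and 231 against 82, 119 and 107), the muscle glycogen phosphorylase Pygm (154, 530 and 301 against 99, 96 and 149) and the lysosomal glucosidase Gaa, with 4343, 8076 and 6069 against 2365, 2312 and 2939 (1.24, adjusted p = 0.00439). The Pygm call was lost with only the 6 samples and without NO replicate 2, and 5 genes of the list rose without NO replicate 1. Glycogen synthase Gys1 was lower by less than 2-fold (-0.92, adjusted p = 0.0268).

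**Figure D2:**
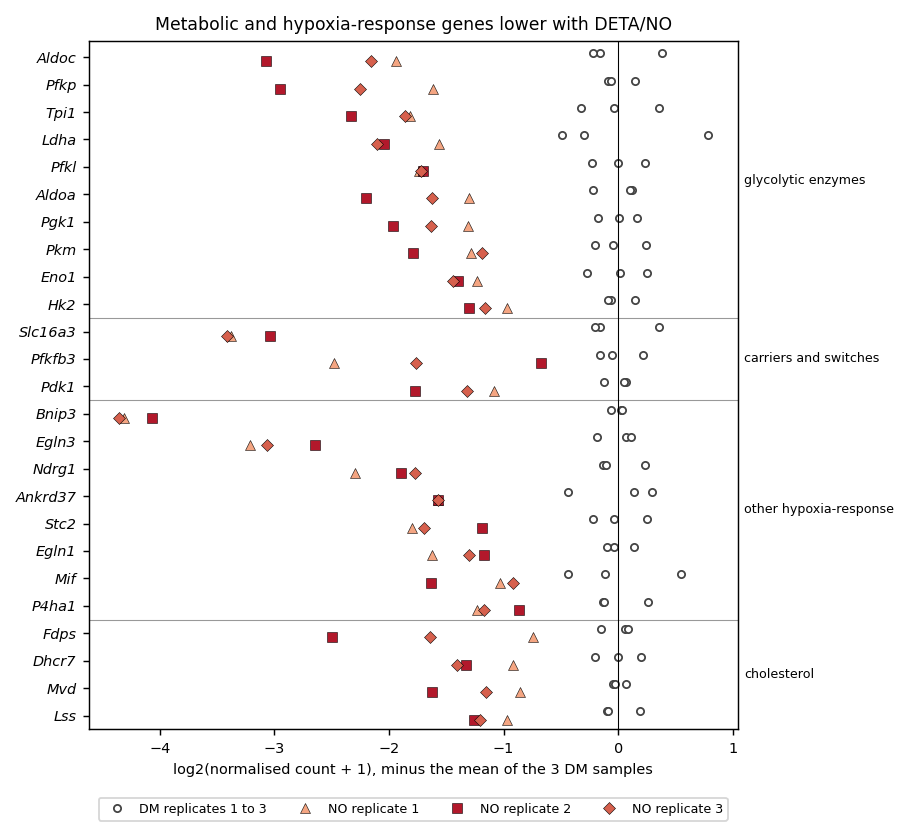
For 25 genes called lower in NO, the log2 normalised count (plus 1) of each library is plotted relative to the mean of the 3 DM libraries. Open circles stand for DM and filled symbols for NO. The genes were picked from glucose metabolism, the hypoxia response and cholesterol synthesis, and members that were not called or rose are not shown. Every NO value lies below the 3 DM values of its gene, as for 317 of the 321 lower genes. Bnip3 and Slc16a3, at -4.25 and -3.28 on average, lie farthest to the left.

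Hypoxia-response genes outside glycolysis included the gene with the smallest adjusted p-value of the comparison. Of 27 genes in the list, 26 were tested, 8 fell and none rose, with a median log2 fold change of -0.58. Without NO replicate 2 the list had 7 lower genes, and without NO replicate 1 it had 2 higher genes. Bnip3 (chr7:138890836-138909519, minus strand), a mitochondrial protein that marks mitochondria for autophagy, had 88, 104 and 85 normalised counts in NO and 1794, 1688 and 1809 in DM (log2 fold change -4.25, SE 0.18, adjusted p = 5.69e-07). The 3 NO libraries were alike and lay at 5.23% of the mean in DM. Exons of Bnip3 overlap the model Gm45507. In GS, Bnip3 was at 1348, 886 and 1353, so NO stood below both other media. Its relative Bnip3l was at 1197, 808 and 929 in NO and 1565, 1356 and 1057 in DM and did not pass the test (-0.44, adjusted p = 0.135).

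The prolyl hydroxylases that mark HIF for decay, themselves hypoxia-response genes, were among the lower genes. Egln3 fell from 630, 529 and 649 to 64, 95 and 71 (log2 fold change -2.97, SE 0.21, adjusted p = 5.57e-05), and Egln1 from 1082, 1035 and 1224 to 360, 492 and 449 (-1.37, adjusted p = 0.00178). Ndrg1, a stress-response gene, had 182, 240 and 262 in NO and 818, 834 and 1052 in DM (-1.99, adjusted p = 4.55e-04). Ankrd37, a direct HIF target, had 24 normalised counts in each of the 3 NO libraries and 90, 81 and 54 in DM (-1.57, adjusted p = 0.00561). The others called were the glycoprotein hormone Stc2, the cytokine Mif and the collagen hydroxylase P4ha1. Vegfa, the vascular growth factor, was lower by less than 2-fold, with 479, 526 and 459 against 645, 821 and 1097 (-0.78, adjusted p = 0.0308). Other members lay the other way without passing the test, among them Car12 (1.60, adjusted p = 0.0648) and Ddit4 (0.68, adjusted p = 0.353), and in both NO replicate 2 held the highest value, with 639 and 3641.

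The HIF subunits gave 1 call at the RNA level. Hif1a had 2486, 2185 and 2008 normalised counts in NO and 2376, 2263 and 1440 in DM (log2 fold change 0.16, adjusted p = 0.600). Of the 8 genes in the list of factors and oxygen sensors, which left out Egln1 and Egln3, 1 fell. It was Hif3a, from 284, 343 and 362 to 207, 115 and 145 (-1.11, adjusted p = 0.0108), by less than 2-fold without NO replicate 2 (-0.92). Protein levels were not measured here.

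The 10 genes with the largest fall were ranked among called genes with a mean of at least 50 over the 6 samples and values that do not overlap, and those not yet described have other functions. A2m, a secreted protease inhibitor, had 303, 193 and 245 normalised counts in NO and 1699, 1707 and 1547 in DM (log2 fold change -2.76, SE 0.18, adjusted p = 3.23e-05), with 1608, 1160 and 1524 in GS. Enpp3, an ectonucleotidase, had 259, 58 and 186 against 630, 643 and 743 (-2.24, adjusted p = 0.00867), and Myrf, a membrane-bound transcription factor known from myelination, 240, 77 and 149 against 550, 662 and 800 (-2.23, adjusted p = 0.00437). Unlike A2m, Enpp3 and Myrf were low in GS, with 35, 25 and 40 and with 96, 86 and 53.

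Mitochondrial pathways gave almost no calls by limma. None of the 20 tricarboxylic acid cycle genes was called (median log2 fold change -0.18), with 4 at an unadjusted p under 0.05, all of them lower in NO. Of all tested genes, 31.3% passed that limit. None of the 7 pentose phosphate genes was called (median -0.20), with 2 at an unadjusted p under 0.05, and of 79 tested nuclear genes of oxidative phosphorylation only Ndufa4l2 fell (median -0.20). Ndufa4l2, which replaces a subunit of the respiratory chain in hypoxia, had 20, 169 and 63 normalised counts in NO and 239, 341 and 628 in DM (log2 fold change -2.61, adjusted p = 0.0169), but its exons overlap Shmt2, and the call was lost with only the 6 samples (adjusted p = 0.0544). Genes encoded by the mitochondrial genome were not analysed here. For fatty acid oxidation, Slc25a20, which carries acylcarnitines into mitochondria, rose from 1247, 1303 and 1402 to 2257, 3245 and 3244 (1.13, adjusted p = 0.00286) and was the 1 called gene of 14 tested.

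Genes of cholesterol metabolism were lower across the pathway. All 23 genes had a negative log2 fold change, with a median of -0.87, and 10 of them were called lower (8 without NO replicate 2). For 20 of the 23 the NO values all lay below the DM values, against 15.3% of all tested genes. Fdps, which makes farnesyl diphosphate, fell from 2677, 2319 and 2735 normalised counts to 1539, 455 and 824 (log2 fold change -1.62, adjusted p = 0.0104). Lss, which closes the sterol ring, had 1290, 1054 and 1091 in NO and 2357, 2369 and 2881 in DM (-1.15, adjusted p = 0.00179), and Dhcr7, the last step, 1075, 810 and 770 against 2034, 1775 and 2344 (-1.22, adjusted p = 0.00287). In fatty acid synthesis 2 of 12 genes fell, the desaturases Scd1 (2584, 874 and 1431 against 3742, 3913 and 4095) and Scd2 (9693, 5345 and 6710 against 16829, 15543 and 16581), and 4 fell without NO replicate 1.

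Of 18 genes of threonine, serine and folate metabolism 4 fell and none rose (median log2 fold change -0.58), with 2 lower without DM replicate 3 and 7 without NO replicate 1. The 4 were Phgdh and Psat1, the first steps of serine synthesis, and Shmt2 and Mthfd1l, which pass its carbon to folate in mitochondria. The Phgdh call was lost with only the 6 samples (adjusted p = 0.0552). Psat1 had 4272, 1287 and 2320 normalised counts in NO and 6237, 5893 and 7606 in DM (-1.48, adjusted p = 0.0153), and Shmt2 had 3055, 1682 and 2301 against 5621, 5340 and 6239 (-1.33, adjusted p = 0.00288). Tdh, the threonine dehydrogenase on which mESC are known to rely, had 9696, 7780 and 8031 in NO and 8426, 8073 and 7380 in DM and did not pass the test (0.09, adjusted p = 0.717). Among 18 tested amino acid carriers, the cationic carrier Slc7a3 fell from 6319, 5519 and 7314 to 3622, 745 and 2654 (-1.72, adjusted p = 0.0240) and Slc1a4 also fell, whereas Slc7a2, which carries arginine, rose from 39, 60 and 26 to 99, 215 and 118 (1.76, adjusted p = 0.00978) and Slc7a10 rose too. With only the 6 samples no carrier fell and 1 rose, and Slc7a3, Slc1a4 and Slc7a10 left the adjusted p threshold in 5 of 19, 7 of 19 and 11 of 18 alternatives. Of 15 genes of the integrated stress response, which share targets with serine synthesis, Chac1, Aldh18a1 and Nupr1 fell and Atf3 rose, and the 3 lower calls were lost with only the 6 samples and without NO replicate 2.

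Genes that handle nitric oxide itself gave few calls. Of 15 tested genes of nitric oxide and cGMP signalling 2 rose (13.3%), against 6.78% of all tested genes. Arg2, an arginase that competes with nitric oxide synthases for arginine, had 27, 183 and 103 normalised counts in NO and 21, 11 and 5 in DM (log2 fold change 2.80, adjusted p = 0.0164), and the cGMP phosphodiesterase Pde5a had 187, 330 and 195 against 95, 99 and 49 (1.56, adjusted p = 0.00985). The Arg2 call was lost with only the 6 samples (adjusted p = 0.0533) and without NO replicate 2 (adjusted p = 0.0514), which left 1 higher gene in each. Nos3, the endothelial synthase, was at 71, 41 and 44 in NO and 79, 90 and 106 in DM and did not pass the test (-0.84, adjusted p = 0.0706). Oxidative stress genes under NRF2 gave 2 calls among 18 tested (11.1%). Nqo1, a quinone reductase, rose from 1307, 1105 and 1447 to 2179, 2832 and 3280 (1.09, adjusted p = 0.00382) and Ephx1, an epoxide hydrolase, from 592, 579 and 801 to 1370, 2999 and 2002. Without NO replicate 3 the NRF2 list gave 1 call. Haem oxygenase Hmox1 had 2765, 4271 and 3627 against 2863, 2338 and 3369 and did not pass the test (0.31, adjusted p = 0.266). None of the 10 metallothionein and iron genes was called by limma (median -0.07). Of these, 4 had an unadjusted p under 0.05, a limit that 31.3% of all tested genes passed. Of 15 chaperones Hspa1a alone rose (6.67%), from 25, 24 and 54 to 81, 252 and 162.

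Targets of p53 gave the most calls among the stress lists. All 26 genes were tested, 11 rose and none fell (median log2 fold change 0.86), and 10 rose without NO replicate 2. For 17 of the 26 the NO values all lay above the DM values, against 18.1% of all tested genes. Mdm2, the ubiquitin ligase that p53 induces against itself, had 4420, 15166 and 6474 normalised counts in NO and 2409, 2199 and 1803 in DM (1.83, adjusted p = 0.00725). Ccng1, cyclin G1, had 8339, 15078 and 11496 against 4815, 4784 and 3676 (1.36, adjusted p = 0.00375), and Cdkn1a, the p21 inhibitor of cell-cycle kinases, 2535, 4859 and 3663 against 1462, 1487 and 1976 (1.13, adjusted p = 0.00801). In GS, Cdkn1a was at 3839, 3758 and 3288, within the range of NO. The death receptor Fas (chr19:34290666-34327772, plus strand) was almost silent in DM, with 3, 3 and 0, and reached 38, 317 and 123 in NO (5.52, SE 0.99, adjusted p = 0.00646). Perp, a membrane protein of p53-dependent death and of desmosomes, rose from 197, 210 and 241 to 901, 4411 and 2165 (3.25, SE 0.41, adjusted p = 0.00195), and Plk2, a stress kinase, from 1057, 1046 and 1160 to 3031, 8071 and 4941 (2.19, adjusted p = 0.00188). Dcxr, Ddit4l, Btg2, Trp53inp1 and Cd80 completed the calls. The p53 target genes Bax, Bbc3 and Pmaip1, which promote cell death at mitochondria, did not pass the test (-0.31, 0.53 and 1.12). In all 11 called genes NO replicate 1 was the lowest and NO replicate 2 the highest of the NO libraries.

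The gene of miR-34a, a microRNA known as a p53 target, was chosen after its values were seen, together with that of miR-200b. The mature RNAs, from RefSeq, are shown with the seed (bases 2 to 8) in capitals, and lie on chromosome 4 of GRCm38.p6, miR-34a-5p at chr4:150068473-150068494 on the plus strand and miR-200b-3p at chr4:156055685-156055706 on the minus strand. Their seeds differ.
miR-34a-5p: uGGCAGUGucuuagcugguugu
miR-200b-3p: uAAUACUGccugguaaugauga
Mir34a had 53, 127 and 76 normalised counts over its precursor in NO and 31, 35 and 38 in DM (log2 fold change 1.19, SE 0.32, adjusted p = 0.0304), a call that was lost with only the 6 samples (adjusted p = 0.0753) and without NO replicate 2 (adjusted p = 0.0956). Mir200b had 8, 47 and 17 against 3, 4 and 5 and did not pass the test (2.01, adjusted p = 0.0570). Reads over a precursor in total RNA do not give the level of the mature microRNA.

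The cells expressed the markers of mESC in every library. Naive pluripotency genes gave no call in either direction: none of 13 passed both thresholds in limma (median -0.01), 5 had an unadjusted p under 0.05, and 3 passed an adjusted p of 0.05 at less than 2-fold. Nanog had 12693, 7678 and 12681 normalised counts in NO and 8190, 8140 and 7596 in DM (log2 fold change 0.43, adjusted p = 0.155), and Zfp42 had 19125, 9994 and 17975 against 22594, 19569 and 20509 (-0.47, adjusted p = 0.172). Sox2 did not pass the test (-0.14, adjusted p = 0.659). Pou5f1 was at 8983, 4276 and 9978 in NO and 15094, 11988 and 15354 in DM, lower by less than 2-fold (-0.95, adjusted p = 0.0349), and it left the adjusted p threshold in 11 of 19 alternatives. Of 12 core and general pluripotency genes, Utf1 (1764, 783 and 1624 against 3184, 3497 and 5464) and Lin28a (2589, 1477 and 2004 against 4634, 4098 and 4288) fell, 1 of this list without NO replicate 2 and 4 without NO replicate 1.

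Of 15 formative and primed genes, all tested, 5 fell and none rose (median log2 fold change -0.73), and 5 fell also with only the 6 samples and without NO replicate 2. Otx2, the transcription factor of the formative state, had 717, 219 and 485 normalised counts in NO and 1582, 1535 and 1685 in DM (-1.91, adjusted p = 0.00527), and 378, 314 and 392 in GS. Dnmt3a, a de novo DNA methyltransferase, had 1859, 1225 and 1328 against 4391, 3872 and 4148 (-1.51, adjusted p = 0.00104), with 1146, 1103 and 1009 in GS. For both genes the mean in NO lay nearer to that in GS than to that in DM. Lef1, a mediator of Wnt signals, went from 42, 46 and 52 to 7, 10 and 3 (-2.75, adjusted p = 0.00346), Fgf15 from 111, 109 and 127 to 52, 8 and 21 (-2.41, adjusted p = 0.0113) and Zic2 from 318, 302 and 360 to 146, 101 and 171 (-1.25, adjusted p = 0.00987). Fgf5, the classical epiblast marker, was low in all libraries, with 0, 6 and 8 against 22, 11 and 9, and did not pass the test (adjusted p = 0.150). Exons of Otx2, Dnmt3a, Lef1 and Fgf15 overlap antisense or model genes.

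**Figure D3:**
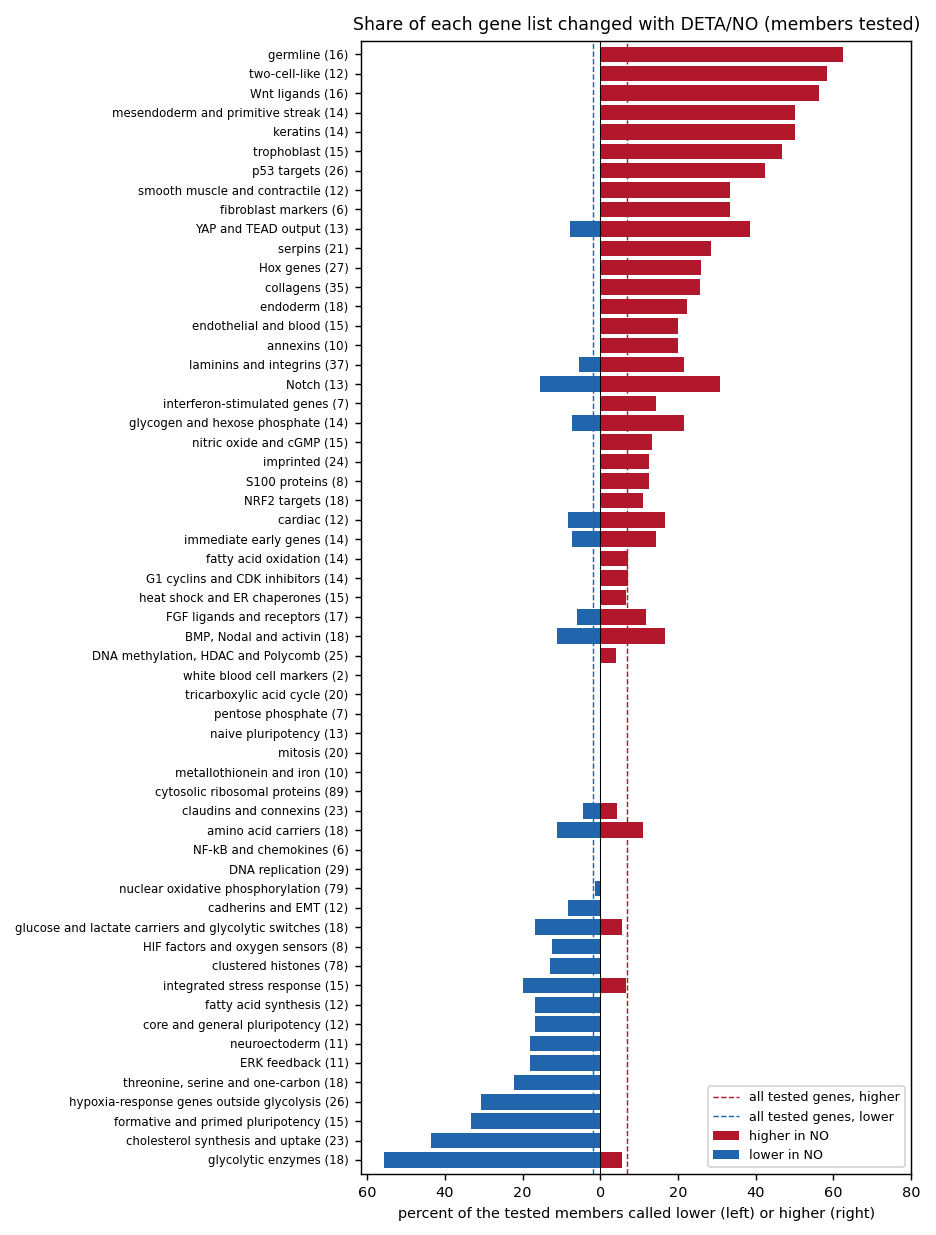
For each of 58 gene lists with tested members, bars give the percentage of tested members called higher (right) or lower (left) in NO, with the number tested in parentheses, and dashed lines give the percentage of all tested genes, 6.78% higher and 1.77% lower. Glycolytic enzymes (55.6% lower) and cholesterol genes (43.5% lower) lie at the bottom and germline genes (62.5% higher) and 2-cell-like genes (58.3% higher) at the top. Without NO replicate 2, the higher calls were 5 of 16 for germline genes and 3 of 12 for 2-cell-like genes.

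In bulk RNA, more cells of a type and more RNA per cell cannot be told apart. Of 18 mesendoderm and primitive streak genes, 4 were too low to test, 7 of the 14 tested rose and none fell. With only the 6 samples, and likewise without NO replicate 2, 4 of them rose, and without DM replicate 1 the count was 3. In this and every other list, a gene that passed the minimum mean only through its NO values had to differ. Such counts describe the list and are no further evidence. Wnt3, the ligand that starts the primitive streak (chr11:103774150-103817957, plus strand), went from 1, 1 and 3 normalised counts in DM to 38, 581 and 162 in NO (log2 fold change 5.94, SE 0.78, adjusted p = 0.00212). Mesp2, a transcription factor of early mesoderm and somites, had 59, 144 and 89 against 26, 17 and 20 (2.09, adjusted p = 0.00682), and Tbx4, of limb and lung mesoderm, 59, 428 and 182 against 10, 23 and 30 (3.06, adjusted p = 0.0128). T (brachyury), the streak marker, stayed low, with 8, 28 and 22 against 10, 1 and 0 (2.70, adjusted p = 0.0342), a call lost in 12 of 19 alternatives, and in GS, which holds a GSK-3 inhibitor, T was at 137, 183 and 131. Eomes, which acts beside T, was at 90, 91 and 118 in NO and 111, 170 and 122 in DM and did not pass the test (-0.41, adjusted p = 0.227).

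In the endoderm list 4 of 18 tested genes rose and none fell, with 2 higher without NO replicate 3 and 8 without NO replicate 1. Gata6, a transcription factor of primitive endoderm, had 20, 234 and 90 normalised counts in NO and 7, 6 and 11 in DM (log2 fold change 3.13, adjusted p = 0.0181), and tissue plasminogen activator Plat, made by parietal endoderm, had 45, 612 and 115 against 9, 24 and 26 (2.97, adjusted p = 0.0240), a call lost with only the 6 samples (adjusted p = 0.0676). The homeobox gene Hhex rose from 48, 60 and 38 to 114, 197 and 120 (1.52, adjusted p = 0.00719) and the chemokine receptor Cxcr4 from 27, 27 and 23 to 46, 93 and 77 (1.40, adjusted p = 0.0123). Foxa2, Cer1 and Afp, defining genes of definitive and visceral endoderm, did not reach the minimum mean, and no NO library had more than 3 normalised counts of any of them.

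Genes of trophoblast, a lineage that ES cells seldom form, gave 7 higher genes of 15 tested, 3 with only the 6 samples or without NO replicate 2 and 2 without DM replicate 1. Tfap2c had 144, 426 and 186 normalised counts in NO and 34, 41 and 52 in DM (log2 fold change 2.41, adjusted p = 0.00286), yet 326, 262 and 275 in GS. Gcm1, which drives syncytium formation, had 12, 146 and 31 against 3, 2 and 7 (3.11, adjusted p = 0.0243), and Gata3 had 41, 114 and 46 against 20, 13 and 20 (1.73, adjusted p = 0.0159). Both of these calls were lost with only the 6 samples (adjusted p = 0.0594 and 0.0528). In the neuroectoderm list none of 11 tested genes rose and 2 fell (median -0.08), Pax6 (2, 3 and 1 against 13, 8 and 13) and Gbx2 (138, 78 and 123 against 266, 302 and 376). The Pax6 call was lost with only the 6 samples (adjusted p = 0.0544). Sox1 was at 58, 58 and 61 in NO and 63, 73 and 73 in DM and did not pass the test.

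Muscle and vessel genes were mixed. Of 12 tested cardiac genes, Nppb and Tnnt2 rose and Myl7 fell, and the 2 higher calls were lost with only the 6 samples and without NO replicate 2. Nkx2-5, Actc1 and Nppa had at most 8 normalised counts in any of these 6 libraries. In smooth muscle 4 of 12 tested genes rose, among them caldesmon (Cald1), with 1900, 5278 and 2858 against 993, 1043 and 799 (log2 fold change 1.70, adjusted p = 0.00498), and Myh11, the myosin of this tissue, with 41, 201 and 71 against 19, 27 and 18 (1.95, adjusted p = 0.0226), while Acta2 was at 4, 6 and 7 in NO. Smooth muscle gave 2 higher genes with only the 6 samples and 1 without NO replicate 3, and the Myh11 call was lost in both. Among 15 tested endothelial genes 3 rose, 1 without NO replicate 2. The angiopoietin receptor Tek rose from 145, 169 and 152 to 557, 1871 and 987 (2.70, SE 0.34, adjusted p = 0.00195) and endoglin (Eng) from 823, 1067 and 1123 to 1497, 3818 and 2369 (1.26, adjusted p = 0.0152), by less than 2-fold without NO replicate 2 (0.92). The vascular cadherin Cdh5 had at most 4 normalised counts in any of these libraries.

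Homeobox genes of the Hox clusters gave 7 higher genes of 27 tested and 35 listed, and none lower. Hoxa7 had 46, 79 and 46 normalised counts in NO and 14, 7 and 14 in DM (log2 fold change 2.21, adjusted p = 0.00435), Hoxc13 had 296, 691 and 417 against 123, 182 and 140 (1.58, adjusted p = 0.00531) and Hoxd13 had 45, 106 and 75 against 23, 23 and 15 (1.78, adjusted p = 0.0119). In GS, Hoxa7 (40, 45 and 34) and Hoxc13 (319, 334 and 304) were also above DM. The count was 4 with only the 6 samples and 3 without NO replicate 2, and it was 11 without NO replicate 1.

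With all samples, germline and 2-cell-like genes had the highest shares of members called higher. Without NO replicate 2, Wnt ligands stood above both lists, with 8 higher of 16 tested. The 2-cell-like genes summed to 112, 83 and 100 normalised counts in DM and to 233, 2170 and 615 in NO. Members could therefore pass the minimum mean through NO alone. Of 16 germline genes, all tested, 10 rose (5 with only the 6 samples or without NO replicate 2), and the median log2 fold change was 1.41. Taf7l, a germ-cell subunit of the general transcription machinery, had 53, 321 and 115 normalised counts in NO and 4, 8 and 3 in DM (4.48, SE 0.59, adjusted p = 0.00212). Hormad1, a protein of meiotic chromosome axes, rose from 52, 67 and 50 to 173, 420 and 262 (2.24, adjusted p = 0.00324), and Piwil2, which loads piRNAs, from 194, 173 and 197 to 348, 667 and 573 (1.44, adjusted p = 0.00379). Of 12 genes of the 2-cell-like state, a rare state of ES cells that resembles the early embryo, 7 rose, 2 with only the 6 samples, 3 without NO replicate 2 and 12 without NO replicate 1. Zscan4c had 41, 146 and 47 against 10, 4 and 12 (2.90, adjusted p = 0.00762) and Usp17le had 52, 598 and 160 against 27, 19 and 12 (3.15, adjusted p = 0.0145). Both families consist of near-identical copies, and reads that fit several genes were not counted, so single members are uncertain. Among 24 imprinted genes H19, Igf2 and Plagl1 rose (12.5%, against 6.78% of all tested genes). The list had 1 higher gene without NO replicate 2 and 7 without NO replicate 1. Igf2 left the adjusted p threshold in 8 of 19 alternatives. H19, a noncoding RNA beside Igf2, had 189, 1240 and 385 against 70, 57 and 72 (2.75, adjusted p = 0.00713).

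**Figure D4:**
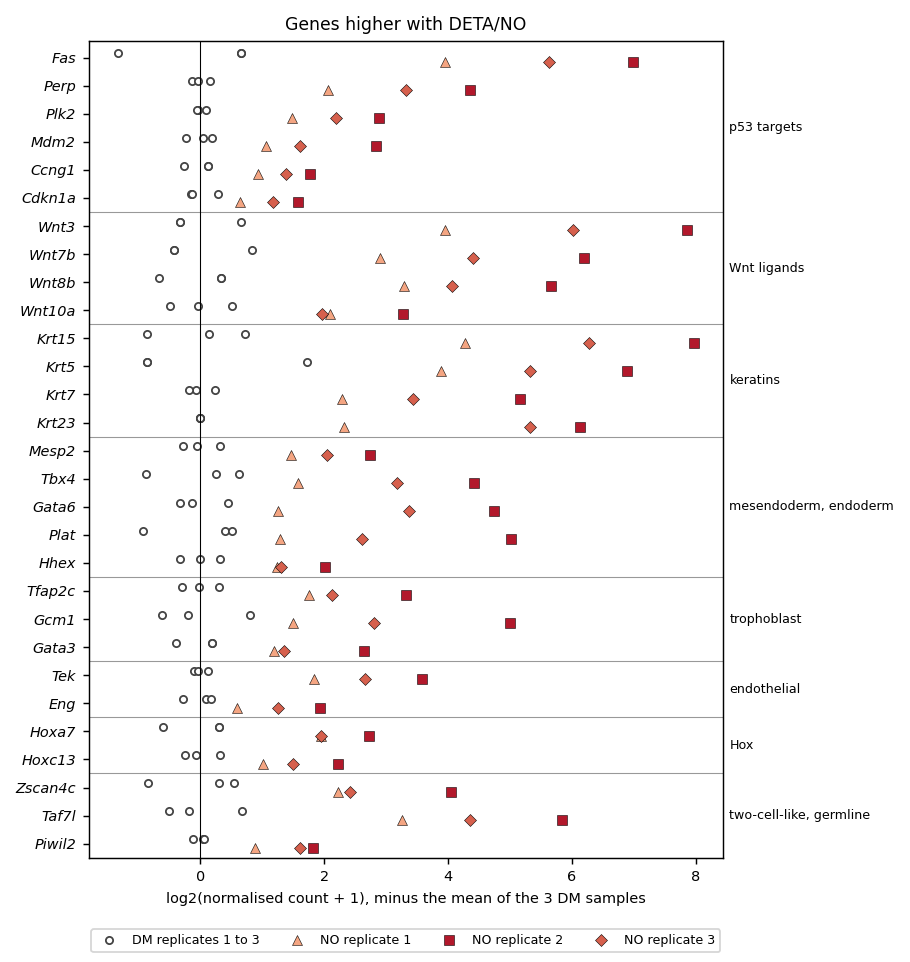
For 29 genes called higher in NO, the log2 normalised count (plus 1) of each library is plotted relative to the mean of the 3 DM libraries, open circles for DM and filled symbols for NO. No NO value overlaps the DM values of its gene, as for 1210 of the 1231 higher genes. NO replicate 2 lies farthest to the right for all 29 genes.

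Epithelial and matrix families contained several of the genes with the highest fitted changes. Keratins, the intermediate filaments of epithelia, numbered 41, of which 27 were too low to test. Of the 14 tested 7 rose, 4 with only the 6 samples or without NO replicate 3. Members near 0 in DM and GS, Krt15 and Krt5 among them, passed the minimum mean only through NO and had to differ. The count therefore describes the list and is no further evidence. Krt15, a basal epithelial keratin (chr11:100131758-100135928, minus strand), had 34, 455 and 139 normalised counts in NO and 2, 1 and 0 in DM (log2 fold change 6.17, SE 0.83, adjusted p = 0.00227). Krt5, also basal, had 26, 215 and 72 against 0, 0 and 5 (5.37, adjusted p = 0.00406), and its usual partner Krt14 reached 1, 19 and 0 in NO and was too low to test. Krt7, of simple epithelia, had 65, 484 and 146 against 12, 11 and 15 (3.63, adjusted p = 0.00682). Krt23 was at 4, 69 and 39 in NO and 0 in all DM libraries. The carboxylesterases Ces2e, Ces2g and Ces2f, adjacent genes on chromosome 8, had the highest fitted changes, with Ces2e at 150, 1333 and 428 against 2, 4 and 4 (6.71, SE 0.78, adjusted p = 0.00161). They are close paralogs and may share reads. Other genes with such changes were Sec14l3, the carboxypeptidase Cpz and the receptor phosphatase Ptprt, which had 123, 681 and 255 against 8, 6 and 5 (5.27, adjusted p = 0.00195).

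Of 35 tested collagens 9 rose and none fell, and 5 rose with only the 6 samples or without NO replicate 2, 4 without DM replicate 2 and 16 without NO replicate 1. Col9a3, a cartilage collagen chain, had 172, 1148 and 497 normalised counts in NO and 53, 47 and 37 in DM (log2 fold change 3.32, adjusted p = 0.00344). Among 37 tested laminins and integrins 8 rose and 2 fell, with 5 higher without DM replicate 1, 13 higher without NO replicate 1 and none lower without NO replicate 2. The leukocyte integrin chain Itgb2 rose from 4, 2 and 13 to 64, 593 and 229 (5.12, adjusted p = 0.00286), Lamb3 of basement membranes rose from 43, 39 and 42 to 111, 754 and 306 (2.81, adjusted p = 0.00738), and Itga9 fell from 707, 622 and 746 to 400, 207 and 353 (-1.16, adjusted p = 0.0102). In the serpin family of protease inhibitors 6 of 21 tested genes rose, led by Serpine2, with 1420, 4989 and 2632 against 296, 261 and 230 (3.34, SE 0.35, adjusted p = 0.00102), and in the annexins 2 of 10, Anxa8 (529, 1648 and 1097 against 92, 86 and 76) and Anxa3. Cadherin and mesenchymal transition genes gave 1 call among 12 tested, a fall of the epithelial splicing factor Esrp1 from 272, 221 and 333 to 132, 96 and 92 (-1.36, adjusted p = 0.00752). Cdh1, Vim and Zeb1 did not pass the test (0.40, -0.06 and 0.00). Claudins and connexins gave 1 call in each direction among 23 tested (4.35% each), against 6.78% higher and 1.77% lower of all tested genes. Neither call was made with only the 6 samples or without NO replicate 2.

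Among the signalling lists, Wnt ligands had the highest share of higher genes. Of 19 Wnt genes 16 were tested, 9 rose and none fell, 7 with only the 6 samples and 8 without NO replicate 2. Members near 0 outside NO, such as Wnt3, could pass the minimum mean through NO alone. The count therefore describes the list and is no further evidence. Beside Wnt3, Wnt7b had 49, 491 and 140 normalised counts in NO and 4, 11 and 4 in DM (log2 fold change 4.50, adjusted p = 0.00437), Wnt8b had 30, 160 and 52 against 3, 1 and 3 (4.34, adjusted p = 0.00378) and Wnt10a had 47, 107 and 43 against 15, 7 and 10 (2.45, adjusted p = 0.0115). Values in GS were between 1 and 11 for these 4 Wnt genes. Of FGF ligands and receptors, Fgf1 and Fgfr4 rose and Fgf15 fell among 17 tested, and no higher call was made without NO replicate 3. These FGF shares, 11.8% higher and 5.88% lower, compare with 6.78% and 1.77% of all tested genes. In the BMP and Nodal group of 18 tested, the Nodal antagonist Lefty1 fell from 1720, 1274 and 1406 to 414, 181 and 396 (-2.23, adjusted p = 0.00188) and Lefty2 fell too, whereas Bmp7 rose from 93, 71 and 135 to 221, 696 and 402 (2.03, adjusted p = 0.00757), as did the BMP target Id2 and the protease Bmp1. Lefty2 and Id2 left the adjusted p threshold in 14 and 13 of 19 alternatives, and the group had 7 higher genes without NO replicate 1.

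Notch genes gave calls in both directions. Notch3 rose from 1471, 1637 and 1752 to 2585, 7632 and 3898 (log2 fold change 1.40, adjusted p = 0.0134) with the ligand Jag2 and the targets Nrarp and Heyl, and Notch4 fell from 739, 800 and 778 to 390, 132 and 360 (-1.54, adjusted p = 0.0140) with the target Hey1. None of the 4 higher Notch calls held without NO replicate 2. Of ERK feedback genes 2 of 11 tested fell, Etv1 and Spry4, and Spry4 had 2684, 1614 and 2646 normalised counts against 4993, 5343 and 5573 (-1.23, adjusted p = 0.0157), just under 2-fold without NO replicate 2 (-0.99). Dusp6 did not pass the test (-0.51, adjusted p = 0.0921). The immediate early genes Fos and Jun rose and Ier3 fell among 14 tested, with no higher call without DM replicate 2 and 5 without NO replicate 1. Genes under YAP and TEAD gave 5 higher and 1 lower of 13 tested, with 2 higher without DM replicate 1 and none lower without NO replicate 2. Cyr61, a matricellular protein, had 314, 1937 and 456 against 123, 103 and 78 (2.70, adjusted p = 0.00891), Ptpn14, a phosphatase, had 3097, 8745 and 4635 against 1452, 1421 and 1355 (1.83, adjusted p = 0.00358), and the factors Tead1 and Tead2 went up and down.

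Growth machinery gave few calls. None of 29 DNA replication genes (median -0.25), 20 mitosis genes (median 0.00) or 89 tested ribosomal protein genes (median -0.17) was called by limma. At an unadjusted p under 0.05 there were 7, 2 and 8 of them, all lower in NO, while 31.3% of all tested genes passed that limit. Among 14 cyclins and inhibitors Cdkn2b, the p15 inhibitor, rose from 47, 60 and 57 to 79, 263 and 166 (log2 fold change 1.46, adjusted p = 0.0254), a call lost with only the 6 samples (adjusted p = 0.0649) and without NO replicate 2 (adjusted p = 0.0753), and Ccnd1 was lower by less than 2-fold (-0.56, adjusted p = 0.0320). Clustered histone genes gave 10 lower of 78 tested, with a median of -0.74. The list had 5 lower genes with only the 6 samples and 4 without NO replicate 2, 3 of them among the 10. Hist1h2be had 4404, 2625 and 4221 normalised counts against 8119, 7759 and 8985 (-1.18, adjusted p = 0.00379). Histone genes lie close together and resemble each other, so single members are uncertain. Among 25 genes of DNA methylation, histone deacetylation and Polycomb, Hdac9 rose, with 29, 151 and 34 against 11, 3 and 4 (3.13, adjusted p = 0.0257), a call lost without NO replicate 2 (adjusted p = 0.0979), and Hdac2 did not pass the test (-0.37, adjusted p = 0.189).

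Markers of cells that could be carried in a culture were low. Of 9 fibroblast markers, summing to 520 to 815 normalised counts in NO and 491 to 511 in DM, Col1a1 and Fbn1 rose among 6 tested, 1 gene with only the 6 samples or without NO replicate 2. Postn, Lum and Dcn had at most 6 in any of these 6 libraries. Of 6 white blood cell markers, summing to 504 to 733 in NO and 320 to 428 in DM, 2 were tested and none was called by limma (1 at an unadjusted p under 0.05), and the defining marker Ptprc had at most 2. Their part in the changes of lineage and matrix genes was not tested.

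The NO libraries differed in the size of the change. Among the 1231 higher genes NO replicate 2 was the highest of the 3 in 1174, and the order from replicate 1 over replicate 3 to replicate 2 was found in 1101. The median log2 difference from the DM mean was 1.25, 2.82 and 1.86 in replicates 1, 2 and 3, and over all tested genes it was 0.01, 0.02 and 0.01. Lower genes showed the mirror image, with medians of -0.93, -1.85 and -1.29, and replicate 2 was the lowest in 236 of 321. The hypoxia-response genes outside glycolysis departed from this: the 8 called had medians of -1.71, -1.60 and -1.63, and replicate 2 was above replicate 1 by a median of 0.38. Keratins called stood at 2.28, 5.16 and 3.44, and p53 targets called at 1.06, 2.84 and 1.61. Of the lower genes, 67 (20.9%) had replicates 1 and 2 within 0.5 on the log2 scale, against 53.2% of all tested genes. Among the 67 were Bnip3, Slc16a3, Ndrg1, Egln1, Pfkl, Eno1, Ldha, Lss and Dhcr7. Replicates 2 and 3 had an estimated 14538542 and 14302054 assigned reads and replicate 1 had 26129207, and the part of depth or of dish in these differences was not tested.

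**Figure D5:**
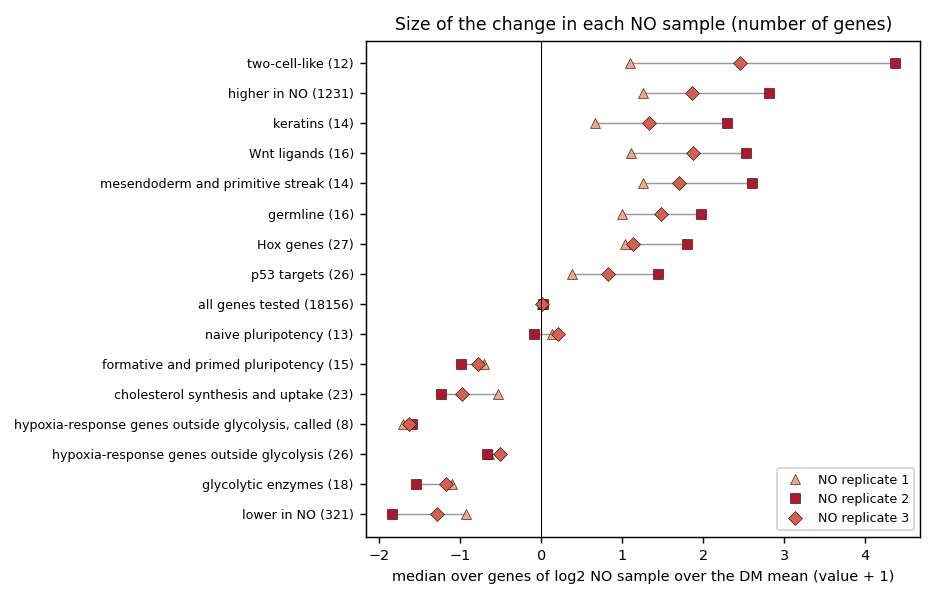
Each symbol is the median over the genes of a set of the log2 difference between 1 NO library and the mean of the 3 DM libraries, with the number of genes in parentheses. For the higher genes the 3 NO libraries stand at 1.25, 1.86 and 2.82, while for the 8 called hypoxia-response genes they lie between -1.71 and -1.60.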

How the data were processed

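Per the methods and the submitters' processing notes, total RNA was depleted of ribosomal RNA and sequenced on an Ion Torrent Proton instrument, reads were aligned to GRCm38 with STAR 2.4.0a and counted over exons with featureCounts 1.4.5-p1, ambiguous reads being left out. Each deposited value is a score, made by the authors by dividing the read count of a gene by a DESeq2 size factor and rounding, so no count model was fitted, although the study used one. Medium and replicate number came from the labels.

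Genes with a mean above 5 over the 9 samples were tested as log2(value + 1) with limma 3.58.1 in R 4.3.3 (mean-variance trend, the 3 media as groups, NO against DM, two-sided, Benjamini-Hochberg over all tested genes). Fold changes on that scale understate changes of low genes. The procedure was tested on simulated data. Depth was estimated from the gaps that rounding leaves among low values, 1 read being worth 0.7 to 1.322 normalised counts. It limits genes with few reads, while 3 replicates limit the rest.

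Genes named are the 10 called genes per direction with the largest change (values not overlapping, mean of at least 50 over the 6 samples, clone and model names skipped), and in each list its preset anchor genes and up to 4 called genes per direction with the smallest adjusted p. Genes named as not called or as further members of a list were added after their values were seen. The members, lists and named genes were chosen with earlier results of these data known. Coordinates and overlaps came from GENCODE M21. RefSeq promoter windows were used for 14554 genes of the table, where the window lay within 2000 bases of the gene with that identifier. Replicate numbers recur in each medium, and deviations from the group mean of NO and DM samples with the same number correlated at 0.16, 0.17 and 0.30. The numbers may therefore pair the samples. The main fit had no block for replicate and left this pairing out. A replicate block entered only as an alternative, which shared 1458 of the 1552 calls. Alternatives changed the samples fitted, the block, the minimum mean, the pseudocount, the scaling, the trend and the fold limit, and left out each replicate. One of them, with only the 6 samples and without NO replicate 2, was chosen after seeing the data. A column with the sum over all samples was not used. Some members of the lists are not reported here.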

Additional observations from a re-analysis of the deposited data

How the results depend on the processing

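None of the alternatives reversed the direction of a named gene with a call. Of 169 named genes with a call, 105 stayed past the adjusted p threshold in every alternative. Against 1552 called genes (1231 higher and 321 lower), 912 (723 and 189) were called with only the 6 NO and DM samples, 909 of them shared, 936 (703 and 233) with a minimum mean of 50 and 639 (493 and 146) with only the 6 samples and without NO replicate 2, an alternative chosen after seeing the data. With no minimum fold change 2587 were called (1636 and 951) and with a minimum log2 fold change of 2 there were 660 (610 and 50). Under quantile normalisation the lower genes numbered 514. Leaving out 1 replicate gave 806 to 2512 called, 628 to 1893 higher and 178 to 619 lower genes. With the replicate block 1553 genes were called, 1458 of them shared, and no call of a named gene changed. Equal totals moved the median of all genes by 0.08 and quantile normalisation by -0.08 on the log2 scale. Genes near 0 in DM have fitted changes that depend on the pseudocount: Krt15 changed by 6.72 with 0.5 and by 4.53 with 5.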

Other observations

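Further gene families were noticed by their shared symbol after the values were seen, so the counts are given as a description without a test of the family. Voltage-gated sodium channel genes (Scn) numbered 9 among those tested, and 5 were higher in NO by limma, 3 of them also without NO replicate 2. Scn3b, a beta subunit that adjusts channel gating, had 378, 1548 and 548 normalised counts in NO and 111, 107 and 68 in DM (log2 fold change 2.86, SE 0.42, adjusted p = 0.00288). Scn8a, a pore-forming subunit, had nearly equal values in the NO libraries, with 156, 193 and 180 against 84, 72 and 79 (1.16, adjusted p = 0.00531). Of 9 adenylyl cyclase genes (Adcy), which make cAMP, 4 were higher and none lower, and the same 4 were higher without NO replicate 2. Adcy7 had 206, 792 and 349 in NO and 87, 102 and 104 in DM (1.97, adjusted p = 0.00797). In the anoctamin family of calcium-dependent channels and scramblases Ano3 rose from 66, 74 and 31 to 368, 1312 and 634 (3.63, adjusted p = 0.00168).

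Among 31 cytochrome P450 genes 8 were higher and 1, the sterol demethylase Cyp51, was lower. Cyp26b1, which breaks down retinoic acid, had 48, 238 and 85 normalised counts in NO and 9, 8 and 21 in DM (log2 fold change 3.00, SE 0.56, adjusted p = 0.00763), and Cyp27a1, which oxidises sterol side chains, had 134, 299 and 186 against 58, 71 and 82 (1.47, adjusted p = 0.0132). In GS both were near DM, with 18, 11 and 9 for Cyp26b1 and 64, 37 and 42 for Cyp27a1. The share of called genes among all tested was 8.55%.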
